A study of Mus musculus with 12 samples.

Results

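Mitochondrial protein import was examined through 34 mouse genes that encode the translocases, sorting factors, chaperones and peptidases through which cytosolic precursors enter the mitochondrion. They were chosen by name, as a list of outer and inner membrane translocase, sorting and presequence-processing genes, and all 34 were found by symbol among the 53465 genes of the deposited count table. Haematopoietic stem cells sorted from mouse bone marrow were cultured for 2 days with or without nicotinamide riboside (NR), which cells convert to NAD+. The comparison tests the effect of NR on the transcriptome of the long-term (LT-HSC) and the short-term (ST-HSC) populations.

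The 4 groups held 3 libraries each. NR LT-HSCs and control LT-HSCs came from the Lin-ckit+sca1+CD150+CD48-CD34- gate, and NR ST-HSCs and control ST-HSCs from the gate that differs from it by CD34+. NR was present at 1 mM and renewed after 24 h, and control cultures received no NR. Every culture was kept in Stemline II to which SCF (100 ng/ml) and Flt3 (2 ng/ml) were added. The strain, age and sex of the mice are not given in the labels, nor is any statement on whether the libraries of a group were taken from different mice or cultures. The p-values hence weigh differences against the spread of these libraries alone, and that spread may be technical. Complementary DNA was made with the SMART-seq v4 kit, and each sample contributed 2.5 ng of RNA.

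Most mitochondrial proteins are made in the cytosol and are imported through the TOM complex of the outer membrane, in which Tomm40 forms the pore and Tomm20, Tomm22 and Tomm70 act as receptors. Precursors with an N-terminal presequence then pass the TIM23 complex, are pulled in by a motor built on the Hsp70 Hspa9, and lose the presequence to the processing peptidase. Small TIM chaperones carry hydrophobic proteins across the intermembrane space to the TIM22 complex or to the SAM complex, and the disulfide relay of Chchd4 and Gfer traps cysteine-rich proteins there. In haematopoietic stem cells, mitochondrial content and activity are known to change as the cells leave quiescence.

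Each library held 24589718 to 35456821 reads counted to genes. Levels are given as counts-per-million (CPM) after trimmed-mean scaling of the library sizes, so that they are shares of the counted RNA. In bulk samples, fewer cells of a type and less RNA per cell cannot be told apart. Reads in no annotated gene made up 9.41%, 11.3% and 28.6% of reads in NR LT-HSCs, against 10.2%, 8.69% and 16.0% in control LT-HSCs. They made up 9.17%, 13.0% and 26.2% in NR ST-HSCs, against 11.1%, 16.99% and 16.5% in control ST-HSCs. Sample 3 of both NR groups therefore stood above 20%. Counts of lower genes over all members, and over further genes of import, are also given without these 2 libraries. Counts by complex and of separated libraries are not. Cd34 averaged 242 and 259 CPM in NR and control LT-HSCs, against 704 and 627 CPM in NR and control ST-HSCs, the order of the gates. In control culture, LT-HSCs also had more Ly6a (log2 difference 2.59) and Slamf1 (1.05) and less Cd48 (-2.60) than ST-HSCs, all 3 called by edgeR, although both gates hold these markers alike. Slamf1, which encodes CD150, was the sort gene called with NR, at -0.65 in ST-HSCs (edgeR adjusted p = 0.00627) and -0.41 in LT-HSCs (adjusted p = 0.0802). In ST-HSCs with NR, 4 of 5 sort genes had an unadjusted edgeR p under 0.05 (2 lower, 2 higher), against 5400 of 19830 genes. The changes of the 5 sort genes there ran from -0.98 to 0.37. Among markers of other blood cells, the summed level of 6 monocyte and macrophage genes ran from 77.4 to 90.4 CPM in NR LT-HSCs, against 55.4 to 58.0 CPM in control LT-HSCs, and from 151 to 192 CPM in NR ST-HSCs, against 73.9 to 75.4 CPM in control ST-HSCs. The sum of 6 megakaryocyte and platelet genes ran from 1845 to 2510 CPM in NR LT-HSCs, against 3024 to 3455 CPM in control LT-HSCs, and from 1696 to 2220.0 CPM in NR ST-HSCs, against 2951 to 3255 CPM in control ST-HSCs. With NR averaged over both cell types, 16.1% of all genes tested were called lower and 7.88% higher. Of the markers, 3 of 5 tested monocyte genes were higher and 5 of 6 megakaryocyte genes were lower. Of 4 tested erythroid and 4 tested lymphoid genes, 1 each was lower, and no neutrophil or mast cell gene was called. No marker was at 0 in every library, and the part of these shifts, or of the unassigned reads, in the results below was not tested.

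RefSeq (GRCm38.p6) held a promoter window for 31 of the 34 members, each running from 250 bases before to 50 bases after the transcription start. The windows of 6 members are shown, the first 5 of genes that were lower with NR and the last of the member with the highest averaged change. All 6 hold a match to a motif named below, so they do not stand for the lower members as a whole. Among lower members not shown, Tomm40, Tomm5, Chchd4, Dnajc19, Pam16 and Timm17a had windows without a match. Capitals mark matches, on either strand, to the ETS core CCGGAAG, the NRF1 core GCATGCGC, the YY1 core ATGGCGGC, the E-box CACGTG, the CREB-type site TGACGTCA and the C/EBP-ATF element TGATGCAAT. The Timm8a1 window lies at chrX:134541621-134541920 on the minus strand, that of Timm9 at chr12:71136626-71136925 on the minus strand, that of Timm10 at chr2:84826771-84827070 on the plus strand, that of Timm50 at chr7:28311997-28312296 on the minus strand, that of Samm50 at chr15:84191990-84192289 on the plus strand and that of Timm29 at chr9:21592472-21592771 on the plus strand.
Timm8a1: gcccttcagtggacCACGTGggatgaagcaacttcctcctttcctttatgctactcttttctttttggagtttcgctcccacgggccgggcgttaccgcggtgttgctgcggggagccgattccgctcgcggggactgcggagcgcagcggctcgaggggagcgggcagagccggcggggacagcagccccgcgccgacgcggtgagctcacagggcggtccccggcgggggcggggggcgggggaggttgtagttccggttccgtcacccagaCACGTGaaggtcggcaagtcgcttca
Timm9: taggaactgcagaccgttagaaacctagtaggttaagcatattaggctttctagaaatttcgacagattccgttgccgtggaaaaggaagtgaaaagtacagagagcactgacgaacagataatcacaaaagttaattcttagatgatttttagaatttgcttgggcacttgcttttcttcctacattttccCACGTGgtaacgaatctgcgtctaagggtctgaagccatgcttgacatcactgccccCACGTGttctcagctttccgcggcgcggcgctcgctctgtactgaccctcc
Timm10: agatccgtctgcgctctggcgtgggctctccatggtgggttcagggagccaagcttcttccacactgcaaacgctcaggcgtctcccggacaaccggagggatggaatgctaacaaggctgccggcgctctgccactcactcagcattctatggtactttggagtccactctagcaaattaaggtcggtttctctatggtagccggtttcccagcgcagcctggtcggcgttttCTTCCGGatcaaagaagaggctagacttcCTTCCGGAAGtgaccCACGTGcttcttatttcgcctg
Timm50: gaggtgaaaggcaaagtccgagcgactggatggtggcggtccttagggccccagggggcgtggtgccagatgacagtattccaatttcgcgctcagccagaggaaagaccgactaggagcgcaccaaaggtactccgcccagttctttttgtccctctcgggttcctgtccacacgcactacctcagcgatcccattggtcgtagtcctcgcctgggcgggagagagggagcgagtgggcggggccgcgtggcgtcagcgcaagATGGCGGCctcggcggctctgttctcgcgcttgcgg
Samm50: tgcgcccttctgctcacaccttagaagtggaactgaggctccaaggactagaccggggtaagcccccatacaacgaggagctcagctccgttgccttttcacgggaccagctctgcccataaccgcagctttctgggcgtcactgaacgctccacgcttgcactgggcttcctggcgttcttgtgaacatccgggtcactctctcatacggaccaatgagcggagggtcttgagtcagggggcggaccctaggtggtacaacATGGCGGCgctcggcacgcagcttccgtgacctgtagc
Timm29: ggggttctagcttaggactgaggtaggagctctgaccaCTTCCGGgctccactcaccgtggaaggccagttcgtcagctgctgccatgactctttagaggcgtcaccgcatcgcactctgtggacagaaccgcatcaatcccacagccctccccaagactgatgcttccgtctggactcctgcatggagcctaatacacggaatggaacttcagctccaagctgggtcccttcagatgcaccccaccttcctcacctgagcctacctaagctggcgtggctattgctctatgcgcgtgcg

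The ETS core CCGGAAG was in the windows of 13 of the 31 members (41.9%), and in 8.86% of all 32851 windows of the table. The YY1 core ATGGCGGC was in the windows of 6 members (19.4%), namely Mipep, Mtx1, Pmpcb, Samm50, Timm44 and Timm50, and in 2.24% of all windows. The E-box CACGTG was in the windows of 4 members (12.9%), namely Timm10, Timm8a1, Timm9 and Tomm20, and in 7.15% of all windows. GCATGCGC was matched only in the window of Timm13 (3.23% of members, 2.71% of all windows). TGACGTCA and TGATGCAAT were matched in no member and in 1.79% and 0.192% of all windows. The members are counted by gene. Over all 27025 genes with a window, the motifs were in 9.93%, 2.6%, 8.09%, 3.05%, 2.03% and 0.222%, in this order. In the window of Timm10, 2 matches of CCGGAAG lie on opposite strands and share bases, which gives one run of capitals. Of the 19 members with a window that were lower with NR averaged over both cell types, 6 (31.6%) held the ETS core, 5 (26.3%) the YY1 core and 4 (21.1%) the E-box. Among the 12 other members with a window, 7 (58.3%), 1 (8.33%) and 0 held these motifs. These matches describe letters in a window and were not tested.

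Divided by the length of the principal mRNA, the members covered a wide range of levels. Timm50, the TIM23 receptor for presequences, averaged 100.3 CPM per kb over the 12 libraries. Next came Timm8b and Tomm7 with 86.8 CPM per kb each, Timm13 with 80.3 and Tomm5 with 77.0 CPM per kb. At the low end, Tomm6 averaged 0.57 CPM per kb, the pore paralogue Tomm40l 2.51 CPM per kb and Timmdc1 4.24 CPM per kb. The small subunits of the outer membrane and intermembrane space lay at both ends of this scale, since the small TIMs Timm8a1 and Timm10b averaged 5.80 and 6.71 CPM per kb. Of the exon bases of Tomm6, 84.2% overlap other annotated genes, as do 64.3% of Tomm40l (Nr1i3), 30.1% of Mtx1, 22.1% of Timm10b and 20.4% of Pmpca (Inpp5e). Reads ambiguous between genes, 3.3% to 4.38% of reads, were counted to no gene. Since use of strand in the counting is not given, how many reads of these genes were left out in this way is not known. Their levels are therefore uncertain, above all the low levels of Tomm6 and Tomm40l. Named pseudogenes were counted for Dnajc19 and Mipep, with 130 and 6 reads in all libraries together.

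**Figure D1:**
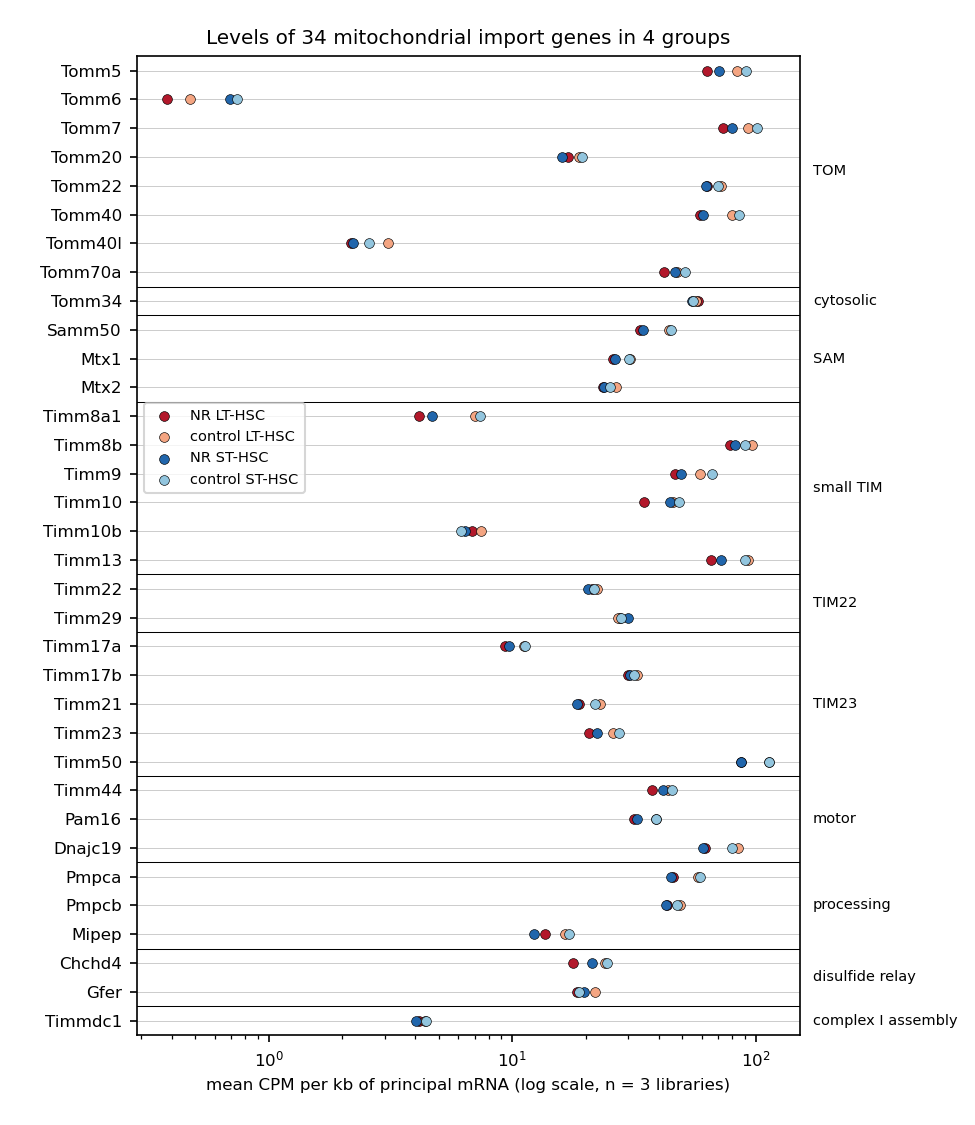
Level of each import gene in CPM per kb of principal mRNA on a log axis, as the mean of 3 libraries for each of the 4 groups, with genes ordered by role. Timm50 averaged 100.3 and Tomm6 0.57 CPM per kb over all libraries, and the NR points lie to the left of the control points for most genes.

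With NR, transcripts of the import machinery took a smaller share of the counted RNA in both cell types. The 34 members summed to 2228, 2440.0 and 2092 CPM in NR LT-HSCs, against 2641, 2803 and 2672 CPM in control LT-HSCs, so that the NR mean was 83.3% of the control mean. In ST-HSCs the sums were 2401, 2390.0 and 2200.0 CPM with NR, against 2751, 2708 and 2763 CPM in control cultures, and the NR mean was 85.0% of control. The ranges of NR and control sums did not overlap in either cell type. Expressed as a group mean, the sum was 2254 ± 175 CPM in NR LT-HSCs and 2706 ± 86.2 CPM in control LT-HSCs, and 2330.0 ± 113 CPM in NR ST-HSCs and 2741 ± 28.8 CPM in control ST-HSCs (SD, n = 3 each).

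Gene by gene, edgeR's quasi-likelihood test over 19830 genes, with Benjamini-Hochberg adjustment over all of them and a call at adjusted p under 0.05, called 14 of the 34 members lower and 0 higher with NR in LT-HSCs. Over all genes tested, 7.58% were called lower and 2.38% higher in that comparison. In ST-HSCs, 12 members were lower and 0 higher, where 11.1% of all genes were called lower and 5.82% higher. For the NR effect averaged over both cell types, 22 members were lower and 0 higher, with 16.1% of all genes called lower and 7.88% higher. At an unadjusted p under 0.05, 24 members were lower and 0 higher in LT-HSCs, 16 lower and 0 higher in ST-HSCs, and 25 lower and 0 higher when averaged, where 14.6%, 17.6% and 20.7% of all genes were lower. DESeq2 called 14, 11 and 18 members lower in the same comparisons and 0 higher in each. Over all genes it called 7.71%, 9.23% and 13.1% lower and 5.02%, 9.64% and 12.5% higher. All 34 members passed the filter on low counts, and 33 of them averaged at least 5 CPM. Among the 10473 genes tested at that level, 14% were lower in LT-HSCs, 20% in ST-HSCs and 28.6% when averaged.

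The members' median log2 change was -0.29 in LT-HSCs and -0.21 in ST-HSCs, with -0.25 for their average. Over all genes tested the medians were 0.04, -0.03 and 0.03, and over genes at 5 CPM or more they were -0.06, -0.08 and -0.07. Averaged over both cell types, 33 of 34 members had a change below 0, in a range of -0.71 (Timm8a1) to 0.06 (Timm29). In LT-HSCs, the 3 NR libraries lay below the 3 control libraries without overlap for 22 members and above them for 0, where 15.9% of all genes tested lay below and 8.57% above in this way. In ST-HSCs, this held for 21 members, and the NR libraries lay above the control libraries for 1 member, Timm29, with 20.9% of all genes below and 11.9% above. The libraries of 19 members were separated downwards in both cell types, as were those of 11.5% of all genes.

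Without the 2 libraries over 20% unassigned reads, LT-HSCs had 9 lower members, ST-HSCs had 6 and the averaged effect had 13, and 0 were higher. In these fits 4.42% of all genes were lower in LT-HSCs, 6.2% in ST-HSCs and 10.6% when averaged, and 2.63%, 7.79% and 10.3% were higher. All 13 were among the 22, and the median averaged change was -0.18. The averaged calls of Tomm20, Tomm40l, Tomm70a, Mtx1, Timm10, Timm21, Timm23, Pam16 and Pmpcb were lost. Sample 3 was the lowest of the 3 NR libraries for 24 of 34 members in LT-HSCs and for 24 in ST-HSCs. Control LT-HSC sample 1, with 10.2% of reads unassigned, was the lowest of its group for 22 of 34 members. The share of all genes at their lowest in each library was not computed. With single libraries left out, the count in ST-HSCs was 3 without NR ST-HSC sample 3, and the count in LT-HSCs was 8 without NR LT-HSC sample 1 and 9 without control LT-HSC sample 2. Over all genes, 5.09%, 4.52% and 4.21% were called lower in these 3 fits. The share among genes at 5 CPM or more, the level of nearly all members, was not computed for fits with libraries left out. With all libraries in ST-HSCs, that share was 20%, against 11.1% over all genes. The 3 members in ST-HSCs are therefore not shown to exceed genes of like level. Tomm40, Timm9 and Pmpca were called lower in ST-HSCs in each of the 12 fits that left out 1 library. In LT-HSCs this held for 8 members, Tomm5, Tomm40, Samm50, Timm8a1, Timm13, Timm50, Pmpca and Chchd4, and for the averaged effect it held for 15.

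The share of calls that were higher depended on the scaling over all genes, at 32.9% for the averaged effect with trimmed-mean factors, against 48.5% under relative log expression, 46.0% under upper-quartile scaling and 48.8% in DESeq2. For the members the direction of calls was the same under these scalings, with 17, 18 and 18 lower and 0 higher. Of all genes, 11.9% were lower under relative log expression and 13.4% under upper-quartile scaling.

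**Figure D2:**
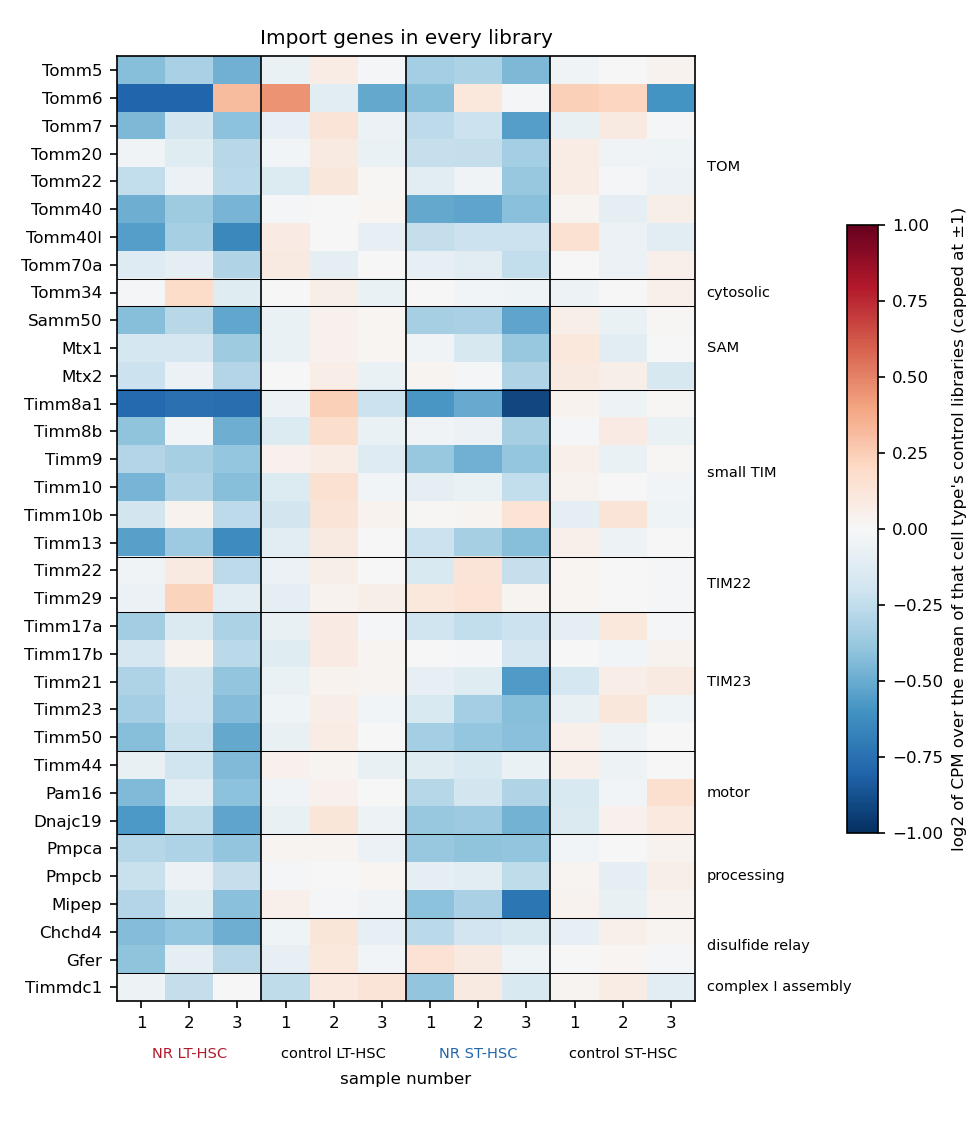
Level of each import gene in each of the 12 libraries, as the log2 difference from the gene's mean over the control libraries of its cell type, with colours capped at 1 either way. Members are rows grouped by role, and the NR libraries stand left of the control libraries in each cell type. Most rows are below 0 in the NR libraries, least so for Tomm34, Timm22, Timm29 and Timm10b.

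**Figure D3:**
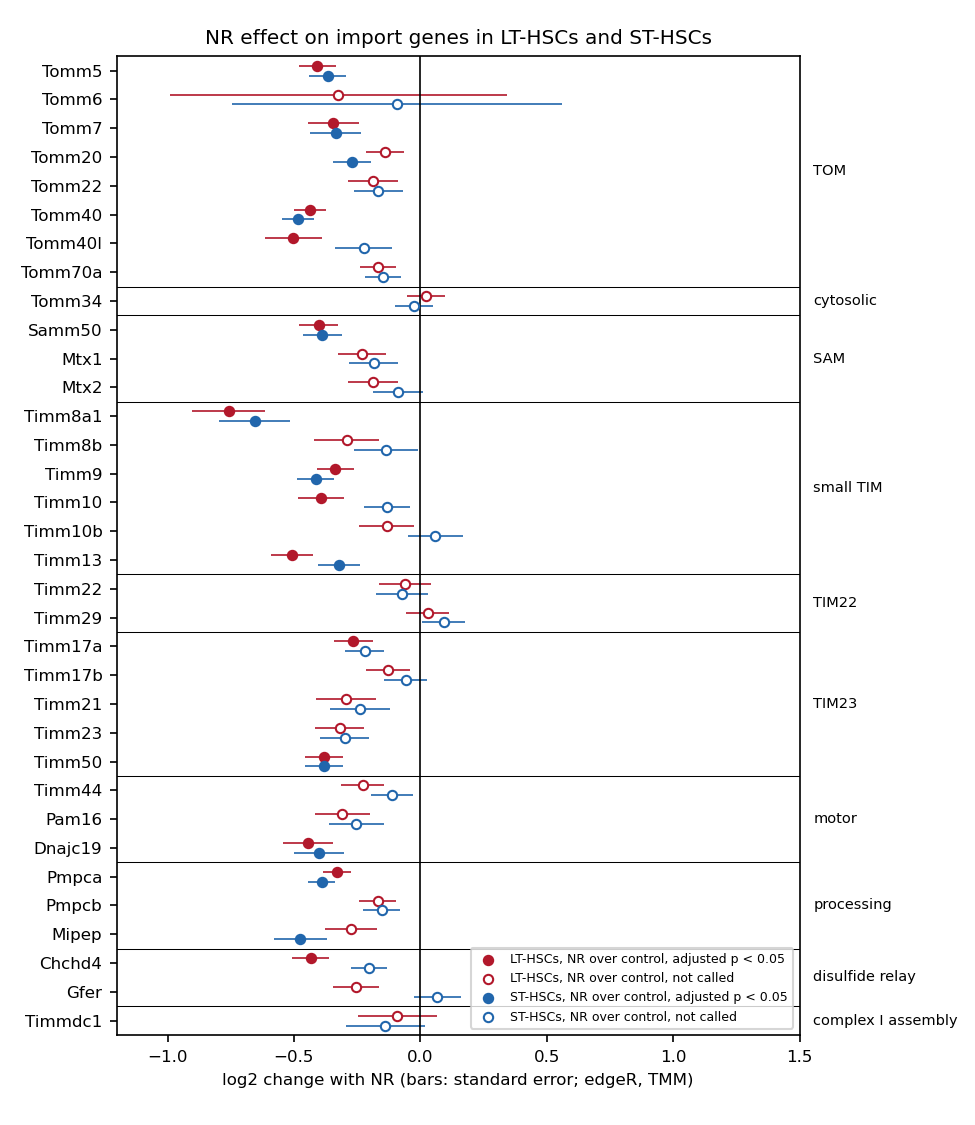
NR effect on each import gene, as log2 NR over control with its standard error, in LT-HSCs and in ST-HSCs. Averaged over both cell types 33 of 34 members lie below 0, and 22 were called lower at adjusted p under 0.05.

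In the TOM complex, 6 of 8 subunits were lower with NR averaged over both cell types (median log2 change -0.27), and the summed level of the 8 was 664, 708 and 620 CPM in NR LT-HSCs, against 788, 801 and 785.5 CPM in control LT-HSCs. Tomm40, the pore-forming channel, had 93.7, 103 and 95.05 CPM in NR LT-HSCs, against 129.8, 132 and 133 CPM in control LT-HSCs. ST-HSC levels of Tomm40 were 98.4, 97.7 and 105 CPM in NR ST-HSCs, against 143, 132 and 146 CPM in control ST-HSCs. Its log2 change, here and below with its standard error, was -0.44 ± 0.06 in LT-HSCs and -0.48 ± 0.06 in ST-HSCs, with edgeR adjusted p-values of 0.00111 and 0.000228. All 6 NR libraries lay below all 6 control libraries, and Tomm40 had the smallest adjusted p of the members for the averaged effect (-0.46 ± 0.04, adjusted p = 1.19e-05).

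Tomm5, a small subunit of the TOM core, had 39.7, 42.7 and 38.2 CPM in NR LT-HSCs, against 51.02, 56.1 and 52.9 CPM in control LT-HSCs, and 45.9, 46.7 and 42.6 CPM in NR ST-HSCs, against 56.6, 57.97 and 59.7 CPM in control ST-HSCs. Every NR library lay below every control library of either cell type. Its averaged change was -0.39 ± 0.05 (edgeR adjusted p = 0.000128).

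The 2 receptors among the core genes had changes nearer to 0, and their difference from Tomm40 was not tested. Tomm20, which recognises presequences, had 89.8, 84.4 and 75.96 CPM in NR LT-HSCs, against 90.2, 97.96 and 87.7 CPM in control LT-HSCs. ST-HSC levels of Tomm20 were 80.5, 79.98 and 74.5 CPM in NR ST-HSCs, against 99.2, 92.2 and 91.8 CPM in control ST-HSCs. The LT-HSC groups overlapped and the ST-HSC groups did not, with log2 changes of -0.14 ± 0.08 (edgeR adjusted p = 0.326) and -0.27 ± 0.08 (adjusted p = 0.0262). The ST-HSC call was lost in 6 of the 12 fits that left out 1 library (adjusted p up to 0.351), with a change of -0.16 without NR ST-HSC sample 3, the others being those without NR LT-HSC sample 1 or 2 or any control ST-HSC sample. The averaged call (-0.20 ± 0.05) was lost without NR LT-HSC sample 2 or NR ST-HSC sample 3, and the average was -0.11 without the 2 libraries over 20% unassigned. The averaged call was also lost under relative log expression (edgeR adjusted p = 0.0722) and without the filter on low counts. The ST-HSC call was not made under relative log expression (edgeR adjusted p = 0.101) or by DESeq2 (adjusted p = 0.063). Tomm70a, the receptor for carrier precursors and docking site of cytosolic chaperones, had the highest CPM of the members, at 259, 266 and 229 CPM in NR LT-HSCs, against 299.7, 263 and 283 CPM in control LT-HSCs. ST-HSC levels of Tomm70a were 289.5, 283 and 258 CPM in NR ST-HSCs, against 307, 294 and 318 CPM in control ST-HSCs. Its groups overlapped in LT-HSCs and were separated in ST-HSCs, and the averaged change of -0.16 ± 0.05 (edgeR adjusted p = 0.0381) was not called under any other scaling, where it was -0.09 to -0.10, nor in 9 of 12 fits without 1 library. Its average was -0.06 without the 2 libraries over 20% unassigned.

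Of the other subunits, Tomm7, which modulates the stability of the complex, changed by -0.34 ± 0.07 on the log2 scale averaged over both cell types (edgeR adjusted p = 0.00337) and by -0.16 in ST-HSCs without NR ST-HSC sample 3, and Tomm40l by -0.36 ± 0.08 (adjusted p = 0.00451). The LT-HSC call of Tomm7 was lost in 10 of 12 fits without 1 library (adjusted p up to 0.193). Its ST-HSC call was lost in 8 of 12 (up to 0.293), and neither was made under relative log expression. Tomm22, the central receptor, was not called (-0.18 ± 0.07, adjusted p = 0.0856), and Tomm6 was too low to measure a change of this size (-0.21 ± 0.47). The cytosolic cochaperone Tomm34 had 130.0, 149 and 121 CPM in NR LT-HSCs, against 131, 137 and 126 CPM in control LT-HSCs, and 128, 125 and 124 CPM in NR ST-HSCs, against 123, 127 and 132 CPM in control ST-HSCs. Its groups overlapped in both cell types and its averaged change was -0.0013 ± 0.05 (edgeR adjusted p = 0.991).

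**Figure D4:**
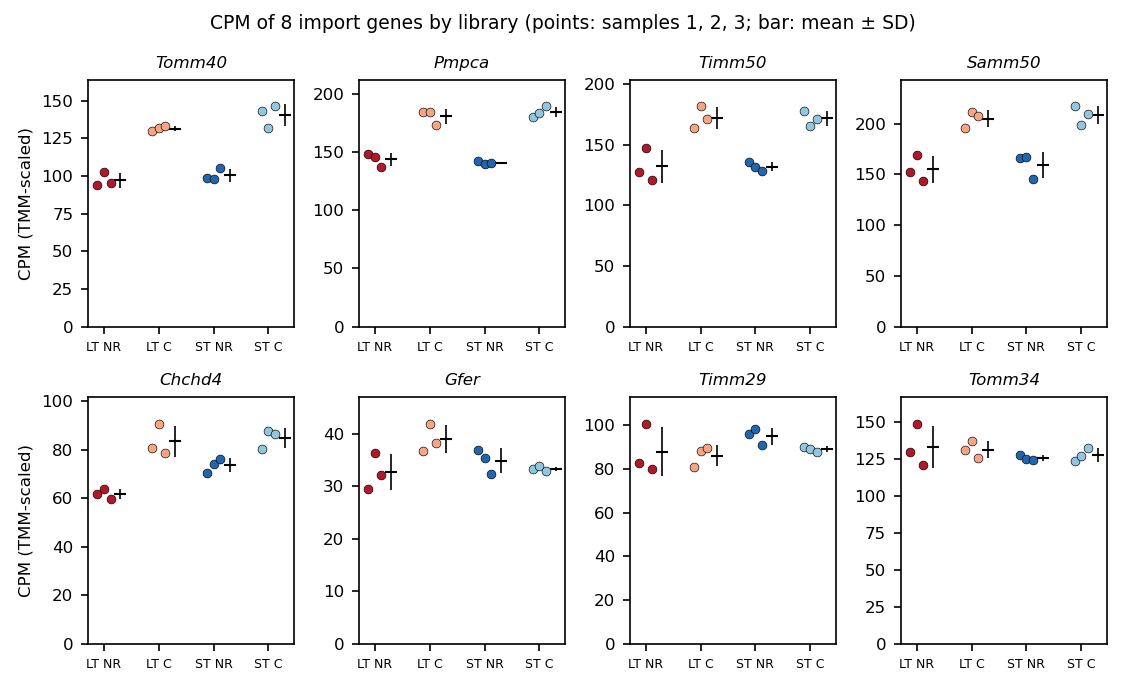
CPM in every library for 8 import genes, with 1 panel per gene, a point per sample and a bar for the mean ± SD of each group (n = 3). Tomm40, Pmpca, Timm50, Samm50 and Chchd4 lie lower in all NR libraries than in the control libraries of the same cell type, Gfer does so in LT-HSCs only, and Tomm34 and, in LT-HSCs, Timm29 overlap.

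In the SAM complex, which inserts beta-barrel proteins into the outer membrane, Samm50 and Mtx1 were lower for the averaged effect and Mtx2 was not called. Samm50, the beta-barrel insertase itself, had 152, 169 and 143 CPM in NR LT-HSCs, against 195, 211 and 208 CPM in control LT-HSCs. ST-HSC levels of Samm50 were 166, 167 and 145 CPM in NR ST-HSCs, against 217, 199 and 209.9 CPM in control ST-HSCs. All NR libraries lay below all control libraries, and the averaged change was -0.40 ± 0.05 (edgeR adjusted p = 0.000155). Its call in ST-HSCs was lost without NR ST-HSC sample 3 (log2 change -0.25, adjusted p = 0.0602). The metaxin Mtx1 changed by -0.21 ± 0.07 (adjusted p = 0.0412), a call lost in 10 of 12 fits without 1 library, with a change as small as -0.12 and of -0.09 without the 2 libraries over 20% unassigned, and Mtx2 by -0.14 ± 0.07 (adjusted p = 0.201). The Mtx1 call was not made under relative log expression, under upper-quartile scaling or by DESeq2.

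Among the 6 small TIM chaperones, Timm8a1, Timm9, Timm10 and Timm13 were lower for the averaged effect, and Timm8b and Timm10b were not called. Timm9, the partner of Timm10 in the hexamer that guides carrier proteins, had 47.6, 46.5 and 44.7 CPM in NR LT-HSCs, against 60.3, 61.4 and 53.5 CPM in control LT-HSCs. ST-HSC levels of Timm9 were 50.1, 46.9 and 50.1 CPM in NR ST-HSCs, against 67.6, 62.5 and 65.9 CPM in control ST-HSCs. All NR libraries lay below all control libraries, and the averaged change was -0.37 ± 0.05 (edgeR adjusted p = 0.000174). The LT-HSC call of Timm9 was lost without NR LT-HSC sample 1 or 2 or control LT-HSC sample 2 (adjusted p up to 0.1).

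Timm10 had 22.8, 25.5 and 23.4 CPM in NR LT-HSCs, against 28.5, 34.9 and 30.8 CPM in control LT-HSCs. ST-HSC levels of Timm10 were 31.4, 32.03 and 28.2 CPM in NR ST-HSCs, against 34.2, 33.4 and 32.8 CPM in control ST-HSCs. NR and control libraries were separated in both cell types. The change was -0.39 ± 0.09 in LT-HSCs (edgeR adjusted p = 0.0167) and -0.13 ± 0.09 in ST-HSCs (adjusted p = 0.438), and the LT-HSC call was lost without any 1 of the 3 NR LT-HSC samples or control LT-HSC sample 2 (adjusted p up to 0.0839). Its averaged change of -0.26 ± 0.07 was called with all libraries. That call was lost without NR LT-HSC sample 1 or NR ST-HSC sample 3 (edgeR adjusted p up to 0.07). It was also lost without the 2 libraries over 20% unassigned and without the filter on low counts. Timm8a1, whose human orthologue TIMM8A is mutated in deafness-dystonia syndrome, had the change farthest from 0 of the members, at -0.71 ± 0.10 averaged (edgeR adjusted p = 0.000214). It had 5.82, 5.94 and 5.92 CPM in NR LT-HSCs, against 9.57, 11.8 and 8.59 CPM in control LT-HSCs. ST-HSC levels of Timm8a1 were 6.98, 7.38 and 5.56 CPM in NR ST-HSCs, against 10.7, 10.1 and 10.6 CPM in control ST-HSCs. Its partner Timm13 changed by -0.41 ± 0.06 (adjusted p = 0.000223). The ST-HSC calls of both were lost without NR ST-HSC sample 3 (Timm8a1 adjusted p = 0.0605), where the change of Timm13 was -0.20, and that of Timm13 in 4 other such fits. Timm8b changed by -0.21 ± 0.09 (adjusted p = 0.113).

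Neither member of the TIM22 complex was called in any NR comparison. Timm22, the channel through which carrier proteins are inserted, had 61.1, 66.4 and 52.1 CPM in NR LT-HSCs, against 59.9, 64.99 and 62.6 CPM in control LT-HSCs. ST-HSC levels of Timm22 were 54.95, 66.8 and 51.96 CPM in NR ST-HSCs, against 61.9, 60.7 and 60.2 CPM in control ST-HSCs. Groups overlapped in both cell types, and the averaged change of -0.07 ± 0.07 (edgeR adjusted p = 0.608) was above 0, at 0.06, without the 2 libraries over 20% unassigned. Timm29, a subunit that holds TIM22 in contact with the TOM complex in human cells, had 82.8, 101 and 79.95 CPM in NR LT-HSCs, against 80.7, 88.03 and 89.5 CPM in control LT-HSCs. ST-HSC levels of Timm29 were 95.9, 98.1 and 90.7 CPM in NR ST-HSCs, against 90.1, 89.2 and 87.8 CPM in control ST-HSCs, with the NR libraries just above the control libraries. Its averaged change was 0.06 ± 0.06 (adjusted p = 0.569). It was called higher only under the filter that kept genes at 5 CPM or more (log2 0.13, adjusted p = 0.0326). The summed level of both genes was 148 ± 17.8 CPM in NR LT-HSCs and 149 ± 6.93 CPM in control LT-HSCs (SD, n = 3 each).

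In the TIM23 presequence translocase, 4 of 5 members were lower for the averaged effect and Timm17b was not called. Timm50 had 128, 148 and 121 CPM in NR LT-HSCs, against 164, 182 and 172 CPM in control LT-HSCs. ST-HSC levels of Timm50 were 136, 132 and 129 CPM in NR ST-HSCs, against 178, 166 and 172 CPM in control ST-HSCs. All NR libraries lay below all control libraries. The change was -0.38 ± 0.07 in LT-HSCs and -0.38 ± 0.07 in ST-HSCs, with edgeR adjusted p-values of 0.00603 and 0.00357, and the ST-HSC call was lost without NR ST-HSC sample 3 (adjusted p = 0.052).

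Timm23, which with Timm17 forms the core of the translocase, had 23.9, 26.5 and 22.5 CPM in NR LT-HSCs, against 29.4, 31.7 and 29.8 CPM in control LT-HSCs. ST-HSC levels of Timm23 were 28.9, 25.5 and 23.9 CPM in NR ST-HSCs, against 30.5, 34.8 and 31.2 CPM in control ST-HSCs. NR libraries lay below control libraries in both cell types, and neither cell type alone passed (edgeR adjusted p = 0.0576 and 0.0508), whereas the average did (-0.31 ± 0.07, adjusted p = 0.00478). With a replicate block the LT-HSC adjusted p was 0.0406, and without the 2 libraries over 20% unassigned the average was -0.21 (adjusted p = 0.0841). Timm17a had 63.97, 73.7 and 65.3 CPM in NR LT-HSCs, against 77.2, 86.04 and 80.9 CPM in control LT-HSCs. ST-HSC levels of Timm17a were 71.5, 69.4 and 70.99 CPM in NR ST-HSCs, against 76.8, 88.4 and 81.5 CPM in control ST-HSCs. Its average change was -0.24 ± 0.05 (adjusted p = 0.00499). Its LT-HSC call (adjusted p = 0.0451) was lost in 11 of 12 fits without 1 library, all but the fit without control ST-HSC sample 2. The paralogue Timm17b changed by -0.09 ± 0.06 (adjusted p = 0.352), and the difference between the paralogues was not tested. Timm21, which links TIM23 to TOM, changed by -0.27 ± 0.08 (adjusted p = 0.036), a call lost in 9 of 12 such fits, where the change was as small as -0.15, and it was -0.12 without the 2 libraries over 20% unassigned. The Timm21 call was not made under relative log expression, under upper-quartile scaling or by DESeq2.

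Of the motor, Dnajc19 and Pam16, the J-domain pair that regulates the Hsp70 at the channel, were lower for the averaged effect. Dnajc19 changed by -0.42 ± 0.07 (edgeR adjusted p = 0.000698), and Pam16 by -0.28 ± 0.08 (adjusted p = 0.0171), a call lost without NR LT-HSC sample 1, NR ST-HSC sample 3 or control ST-HSC sample 3. The LT-HSC call of Dnajc19 was lost in 2 of 12 fits without 1 library and its ST-HSC call in 3 of 12 (adjusted p up to 0.0652 and 0.0963). Timm44, which anchors the Hsp70 at the TIM23 channel, had 74.4, 68.4 and 57.9 CPM in NR LT-HSCs, against 80.9, 79.8 and 74.5 CPM in control LT-HSCs. ST-HSC levels of Timm44 were 74.3, 72.8 and 77.2 CPM in NR ST-HSCs, against 83.6, 77.9 and 80.9 CPM in control ST-HSCs. Although its libraries were separated in both cell types, the averaged change was -0.17 ± 0.06 (adjusted p = 0.0568).

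All 3 presequence-processing genes were lower for the averaged effect. Pmpca, the alpha subunit of the processing peptidase, had 148, 146 and 137 CPM in NR LT-HSCs, against 185, 184 and 173 CPM in control LT-HSCs. ST-HSC levels of Pmpca were 142, 139.8 and 141 CPM in NR ST-HSCs, against 181, 183 and 189 CPM in control ST-HSCs. The NR libraries lay below all control libraries, with changes of -0.33 ± 0.05 in LT-HSCs and -0.39 ± 0.05 in ST-HSCs (edgeR adjusted p = 0.00232 and 0.000362). Pmpcb, the catalytic beta subunit, had 67.4, 75.6 and 66.9 CPM in NR LT-HSCs, against 77.4, 78.8 and 79.8 CPM in control LT-HSCs. ST-HSC levels of Pmpcb were 71.9, 71.3 and 64.4 CPM in NR ST-HSCs, against 78.4, 72.4 and 79.9 CPM in control ST-HSCs. Its libraries were separated too, but the averaged change was -0.16 ± 0.05 (adjusted p = 0.0372). That call did not hold under the other scalings or in 9 of 12 fits without 1 library, where the change was -0.09 to -0.17, and it was -0.07 without the 2 libraries over 20% unassigned. Mipep, the intermediate peptidase that removes a further octapeptide, changed by -0.27 ± 0.10 in LT-HSCs (adjusted p = 0.131) and -0.47 ± 0.10 in ST-HSCs (adjusted p = 0.00673). Its ST-HSC change was -0.29 (adjusted p = 0.0708) without NR ST-HSC sample 3, and its averaged change of -0.37 ± 0.07 was -0.24 without the 2 libraries over 20% unassigned.

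The 2 genes of the disulfide relay gave the smallest edgeR p-values among the members for a difference of the NR effect between the cell types. Neither was called for that difference. Chchd4, the oxidoreductase that receives cysteine-rich precursors, had 61.9, 63.9 and 59.6 CPM in NR LT-HSCs, against 80.8, 90.8 and 78.9 CPM in control LT-HSCs. ST-HSC levels of Chchd4 were 70.6, 74.4 and 76.2 CPM in NR ST-HSCs, against 80.3, 87.9 and 86.7 CPM in control ST-HSCs. NR libraries lay below control libraries in both cell types, with changes of -0.43 ± 0.07 in LT-HSCs (edgeR adjusted p = 0.00249) and -0.20 ± 0.07 in ST-HSCs (adjusted p = 0.0715). Gfer, the sulfhydryl oxidase that reoxidises Chchd4, had 29.5, 36.4 and 32.1 CPM in NR LT-HSCs, against 36.8, 41.9 and 38.3 CPM in control LT-HSCs. ST-HSC levels of Gfer were 36.9, 35.4 and 32.3 CPM in NR ST-HSCs, against 33.2, 33.8 and 32.9 CPM in control ST-HSCs. NR libraries were below control libraries in LT-HSCs and overlapped them in ST-HSCs, with changes of -0.26 ± 0.09 (adjusted p = 0.111) and 0.07 ± 0.09 (adjusted p = 0.81). Timmdc1, a TIM17-family protein that acts in complex I assembly, had an averaged change of -0.12 ± 0.11 (adjusted p = 0.56).

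The difference of the NR effects, LT-HSC minus ST-HSC, passed the edgeR test for 0 of 34 members, where 0.0101% of all genes were called in either direction. At an unadjusted p under 0.05 there were 2 members, Gfer and Chchd4, a share near that of all genes (1201 of 19830). DESeq2 called 0, with 3 at an unadjusted p under 0.05, where 1388 of 19830 genes had one. The difference was -0.32 ± 0.13 for Gfer (edgeR adjusted p = 0.732), -0.23 ± 0.10 for Chchd4 (adjusted p = 0.803) and -0.26 ± 0.13 for Timm10 (adjusted p = 0.888). Calls in one cell type and not in the other, which concern Tomm40l, Timm10, Timm17a and Chchd4 in LT-HSCs and Tomm20 and Mipep in ST-HSCs, are therefore not shown to differ between the cell types. Called in both were Tomm5, Tomm7, Tomm40, Samm50, Timm8a1, Timm9, Timm13, Timm50, Dnajc19 and Pmpca, and the share of all genes called in both was not computed. These comparisons share no libraries, but they share 1 estimate of the spread. Deviations of sample 3 in the 2 NR groups correlated at 0.839. Without NR ST-HSC sample 3, only Tomm40, Timm9 and Pmpca of these stayed called in ST-HSCs.

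Between the cell types, no import gene was called in control culture. LT-HSCs against ST-HSCs without NR gave 0 called members by edgeR, with 5.01% of all genes called, and 0 called by DESeq2. At an unadjusted edgeR p under 0.05 there were 4 members, where 2949 of 19830 genes had one. The members with the smallest p-values were Timm10b, Gfer and Tomm40l. Timm10b, a small TIM bound to the carrier translocase, had 21.5, 26.8 and 25.1 CPM in control LT-HSCs, against 18.9, 21.96 and 19.6 CPM in control ST-HSCs. The groups overlapped and the log2 difference was 0.28 ± 0.11 (edgeR adjusted p = 0.221). Gfer had 36.8, 41.9 and 38.3 CPM in control LT-HSCs, against 33.2, 33.8 and 32.9 CPM in control ST-HSCs, without overlap, a difference of 0.23 ± 0.09 (adjusted p = 0.237). Tomm40l had 15.3, 14.5 and 13.6 CPM in control LT-HSCs, against 13.5, 11.7 and 11.3 CPM in control ST-HSCs, also without overlap, and differed by 0.25 ± 0.11 (adjusted p = 0.308).

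With NR, 3 members had an unadjusted edgeR p under 0.05 between LT-HSCs and ST-HSCs, where 3361 of 19830 genes did. At adjusted p under 0.05, edgeR called 1 of 34 members, with 6.07% of all genes called. That member was Timm10, with 22.8, 25.5 and 23.4 CPM in NR LT-HSCs, against 31.4, 32.03 and 28.2 CPM in NR ST-HSCs. The groups did not overlap and the log2 difference was -0.35 ± 0.09 (edgeR adjusted p = 0.04). The call was lost in 9 of 12 fits without 1 library (adjusted p up to 0.13), all but those without control LT-HSC sample 1 or 2 or NR ST-HSC sample 3, and in the fit of these 2 groups alone. Chchd4 had 61.9, 63.9 and 59.6 CPM in NR LT-HSCs, against 70.6, 74.4 and 76.2 CPM in NR ST-HSCs, without overlap, and differed by -0.25 ± 0.07 (adjusted p = 0.0577). With the sample number as a block, its adjusted p was 0.0346, and DESeq2 gave 0.00212. Tomm5 had 39.7, 42.7 and 38.2 CPM in NR LT-HSCs, against 45.9, 46.7 and 42.6 CPM in NR ST-HSCs, with groups that overlapped, and differed by -0.16 ± 0.07 (adjusted p = 0.269).

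A further 51 genes that act with the import machinery were read beside the members, and 33 were lower and 0 higher with NR averaged over both cell types (median log2 change -0.26, with 16.1% of all genes lower). LT-HSCs had 24 such genes and ST-HSCs 22, where 7.58% and 11.1% of all genes were lower. Without the 2 libraries over 20% unassigned these counts were 17 and 10, and 21 were lower for the averaged effect, against 4.42%, 6.2% and 10.6% of all genes. Their summed level with NR was 82.2% of control in LT-HSCs and 82.9% in ST-HSCs. Of the import chaperones, 11 of 12 were lower and Grpel2 was not called. Hspa9, the Hsp70 of the import motor, had 467, 456 and 416 CPM in NR LT-HSCs, against 638, 639 and 631 CPM in control LT-HSCs. ST-HSC levels of Hspa9 were 465, 471 and 444 CPM in NR ST-HSCs, against 662, 643 and 662 CPM in control ST-HSCs, and the averaged change was -0.51 ± 0.04 (edgeR adjusted p = 1.3e-06). The matrix chaperonin subunits Hspd1 and Hspe1 changed by -0.57 ± 0.04 and -0.68 ± 0.06, each with all NR libraries below all control libraries.

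In MICOS, the complex that shapes cristae and contacts SAM, and its outer membrane partner Dnajc11, 8 of 8 genes were lower, with Dnajc11 at -0.40 ± 0.04, Chchd3 at -0.41 ± 0.05 and Micos13 at -0.41 ± 0.06. For inner membrane insertion and further processing, 4 of 8 were lower, among them Romo1 (-0.46 ± 0.06), Immp2l (-0.65 ± 0.11) and Cox18 (-0.30 ± 0.06). Of 19 twin-cysteine proteins that the disulfide relay imports, 9 were lower, with Chchd2 (-0.42 ± 0.06), Cox6b1 (-0.36 ± 0.06) and Ndufb7 (-0.38 ± 0.06) at the smallest p-values, and 10, including the copper chaperones Cox17 and Cox19, were not called. Of 4 outer membrane partners, 1 was lower, the insertase Mtch2 (-0.18 ± 0.05), and Mtch1, Mtx3 and Tomm20l were not called.

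**Figure D5:**
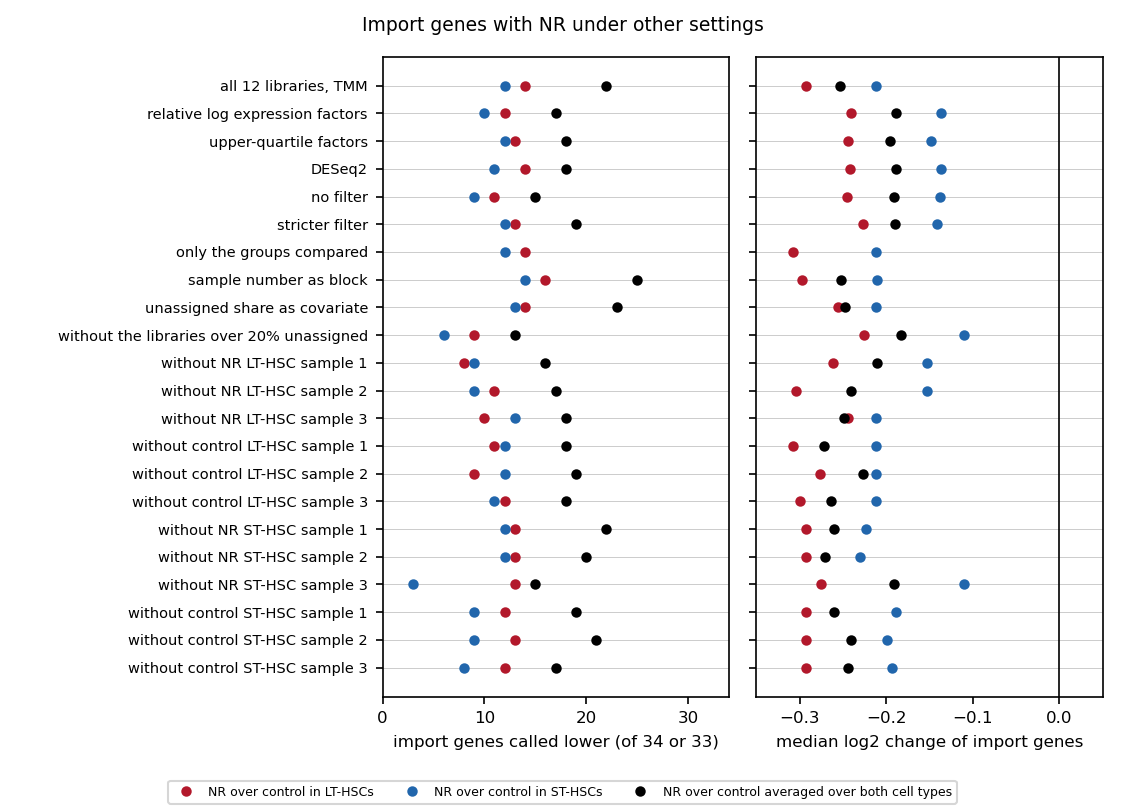
Number of import genes called lower with NR under each way of processing the counts, for LT-HSCs, ST-HSCs and the averaged effect (left), with the members' median log2 change (right). The averaged count was 22 as reported and 13 without the 2 libraries over 20% unassigned reads.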

How the data were processed

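Bulk RNA-seq of 12 libraries was analysed from the raw count per gene that the authors deposited as 1 table. Per the submitters' processing notes, FastQC 0.11.2, STAR 2.5.0b and HTSeq 0.6.1 were used. The genome build, annotation and strand setting were not given in the sources used here. Rows for unassigned reads were left out of library sizes, and all 12 sample columns were used.

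The counts were fitted with edgeR 4.0.16 (R 4.3.3, limma 3.58.1), with trimmed-mean (TMM) factors, filterByExpr (minimum count 10, minimum total 15), 4 group means and two-sided quasi-likelihood tests with 8 residual degrees of freedom (biological coefficient of variation 0.402). P-values were adjusted by Benjamini-Hochberg over 19830 genes. Intervals of log2 changes are standard errors. Scripts were tested on simulated data. Symbols came from a table of gene names, lengths and exon overlaps from GENCODE M21, and promoter windows from RefSeq.

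The members, lists, motifs and markers were chosen with earlier results of these data known. Members given with every library were those with the smallest p for the averaged NR effect (6), the difference of effects (3) and each LT-HSC against ST-HSC comparison (3), and 11 core subunits. Timm8a1, Timm29 and Tomm34 were added to these after their values were seen.

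Sample numbers in the titles are shared by the groups. Deviations of same-numbered samples correlated at 0.25 to 0.713 between NR and control LT-HSCs and at 0.151 to 0.839 between NR LT-HSCs and NR ST-HSCs. Different-numbered samples reached 0.328 and 0.366 there, above the lowest same-numbered values. Whether the numbers pair the samples is therefore not settled. Same-numbered samples gave values down to -0.061 between NR and control ST-HSCs and -0.232 between control LT-HSCs and control ST-HSCs. Replicates differed by more than sampling noise (chi-square per degree of freedom of 6.3 or more). Alternatives were other scaling factors, DESeq2 1.42.0, other filters, only the groups compared, a replicate block, the unassigned share as a covariate and fits with libraries left out.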

Additional observations from a re-analysis of the deposited data

Results flagged for a closer look

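Reads outside every annotated gene were not part of the comparisons, and 2 libraries stood apart in them. They made up 28.55% of reads in NR LT-HSC sample 3, against at most 16.0% in control LT-HSCs, and 26.22% in NR ST-HSC sample 3, against at most 16.99% in control ST-HSCs. In the same libraries 24 of 34 import genes in LT-HSCs and 24 of 34 in ST-HSCs were at the lowest level of the 3 NR samples. Control LT-HSC sample 1, with 10.2% of reads in no annotated gene, was the lowest of its group for 22 of 34. The share of all genes at their lowest in each library was not computed.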

How the results depend on the processing

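Without the 2 libraries over 20% unassigned reads, counts of lower import genes were 9 in LT-HSCs, 6 in ST-HSCs and 13 when averaged, against 14, 12 and 22 with all libraries. Fewer libraries enter these fits, and the cause of the lower counts was not tested otherwise. With each library left out in turn, the counts of lower members ran from 8 to 13 in LT-HSCs, from 3 to 13 in ST-HSCs and from 15 to 22 when averaged. In the same fits 0 to 0 members were higher in each NR comparison, 0 to 0 were called for the difference of effects and between the cell types in control culture, and 0 to 2 were called between the cell types with NR. The stricter filter called 1 member, Timm29, higher for the averaged effect. Between LT-HSCs and ST-HSCs with NR, 2 members were called under relative log expression factors, upper-quartile factors, DESeq2, the stricter filter, the replicate block and the unassigned share as a covariate, and 0 with only the groups compared or without the 2 libraries, where the cause was not tested.

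The averaged change of Timm22 was above 0 at 0.0019 under the stricter filter, 0.0578 without the 2 libraries and 0.0126 without NR ST-HSC replicate 3, and ran from -0.1252 to 0.0126 with 1 library left out. With the replicate block, 16 members were lower in LT-HSCs, 14 in ST-HSCs and 25 when averaged. Of all 19830 genes, 1898, 2653 and 3551 were lower with the block, against 1503, 2193 and 3189 as reported. Same-numbered samples correlated positively between NR and control LT-HSCs and between the 2 NR groups, but not throughout in ST-HSCs. Whether the numbers mark pairs is not settled, so these counts rest on a shared number only. No reported count uses the block. The block added Timm8b and Timm23 in LT-HSCs, Timm17a and Timm23 in ST-HSCs, Timm8b, Timm44 and Tomm22 for the averaged effect and Chchd4 between the cell types with NR, and it removed no call. The median change over all genes for the averaged effect was 0.03 as reported, -0.09 with the covariate and -0.08 without the 2 libraries, where the members' medians were -0.25, -0.25 and -0.18. Of 466 values of named genes under the alternatives, 407 kept direction and side of the threshold, 47 lost the call, 9 gained it and 3 changed sign.

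Low counts limit Tomm6, Timm8a1 and Timmdc1 most, which averaged 0.43, 8.24 and 6.68 CPM. For Tomm6 and Tomm40l the level itself is uncertain, since 84.2% and 64.3% of their exon bases overlap other annotated genes.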
